A study of Mus musculus with 4 samples.

Results

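The genes of the bone morphogenetic protein (BMP) and transforming growth factor beta (TGF-beta) pathway were described in 4 primary mouse tumours. Members were chosen by gene symbol: ligands (Bmp, Gdf, Tgfb and Inhb genes), their receptors (Bmpr, Acvr and Tgfbr genes), the Smad genes, Id1 to Id4, and the secreted antagonists Nog and the Grem genes. The rule found 53 of the 22180 genes that could be named on the array, and each member is described or counted below. It also takes in Bmp1 and Bmp2k, which carry the name of the ligands but are not ligands themselves. All 4 tumours form 1 group. Each carries a mutant Alk and TH-MYCN and is Stat6-/-, on a mixed background of the C57BL/6 and 129Sv/J strains. TH-MYCN places MYCN under the tyrosine hydroxylase promoter, which is active in the sympathetic nervous system, and mice that carry it develop neuroblastoma. The series asks how STAT6, which drives alternative macrophage polarization, bears on tumour growth. No Stat6-intact tumour was analysed here. The values are therefore levels with their spread between tumours and give no effect of genotype. That each tumour came from an animal of its own is not stated.

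Ligands of this family are secreted dimers that bring together type II and type I receptors, both serine/threonine kinases. The type II receptor activates the type I receptor, which phosphorylates receptor SMAD proteins: SMAD1, SMAD5 and SMAD9 in the BMP branch, SMAD2 and SMAD3 in the TGF-beta and activin branch. These join SMAD4, enter the nucleus and act on target genes, among them the Id genes and the inhibitory Smad6 and Smad7. During development BMP signals direct cells of the neural crest into the sympathetic lineage, from which neuroblastoma arises. The Alk gene mutated in this model encodes a receptor tyrosine kinase and is not one of the activin receptor-like kinases of the BMP and TGF-beta family.

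Levels are RMA values in log2 units, 1 array per tumour, so that a difference of 1 is 2-fold. A gene was counted as above the floor when its 4-tumour mean exceeded 6.17, the 95th percentile of 1390 olfactory and vomeronasal receptor genes, taken as silent in a tumour. Under the floor, signal and background cannot be separated, so absence is not claimed. Levels depend on the probes and are not compared between genes. All 7 measured sympathetic markers lay above the floor, with Th at 11.88 ± 0.18 and Dbh at 10.64 ± 0.33 (SD, n = 4). Although the tissue label is a neck muscle, 0 of 6 markers of skeletal muscle passed. Tumour 4 differed from the others in sex-linked genes: Xist, expressed from the inactive X chromosome, stood at 10.13 in tumour 4 against 3.89 to 3.95 in the others. Values that set tumour 4 apart therefore cannot be told apart from sex. In tumour pieces, fewer cells of a type and less RNA per cell cannot be told apart either.

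Of the 53 pathway genes, 21 lay above the floor (39.6%), beside 40.5% of all genes, so the share was close to the background. In 18 of the 21 every tumour was above it. The exceptions were Bmp7 (5.94 in tumour 4), Id3 (5.96 in tumour 2) and Bmp3 (6.11 in tumour 2 and 6.04 in tumour 4). The count was uneven between roles. Of the type I receptors 5 of 7 passed, of type II 2 of 4, and of the receptor SMADs 2 of 3 in the BMP branch and 1 of 2 in the other. Smad4 passed too. None passed among the 4 activin and inhibin beta chains, the 2 secreted antagonists and the 2 inhibitory SMADs. Each role holds few genes, and these counts were not tested against the background. Just inside the floor were Bmp3 at 6.29, Acvr1 at 6.43 and Id3 at 6.54, and just outside it Acvr2b at 6.14, Tgfbr2 at 6.13, Tgfb2 at 5.81, Smad9 at 5.78 and Gdf10 at 5.72 (4-tumour means).

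**Figure D1:**
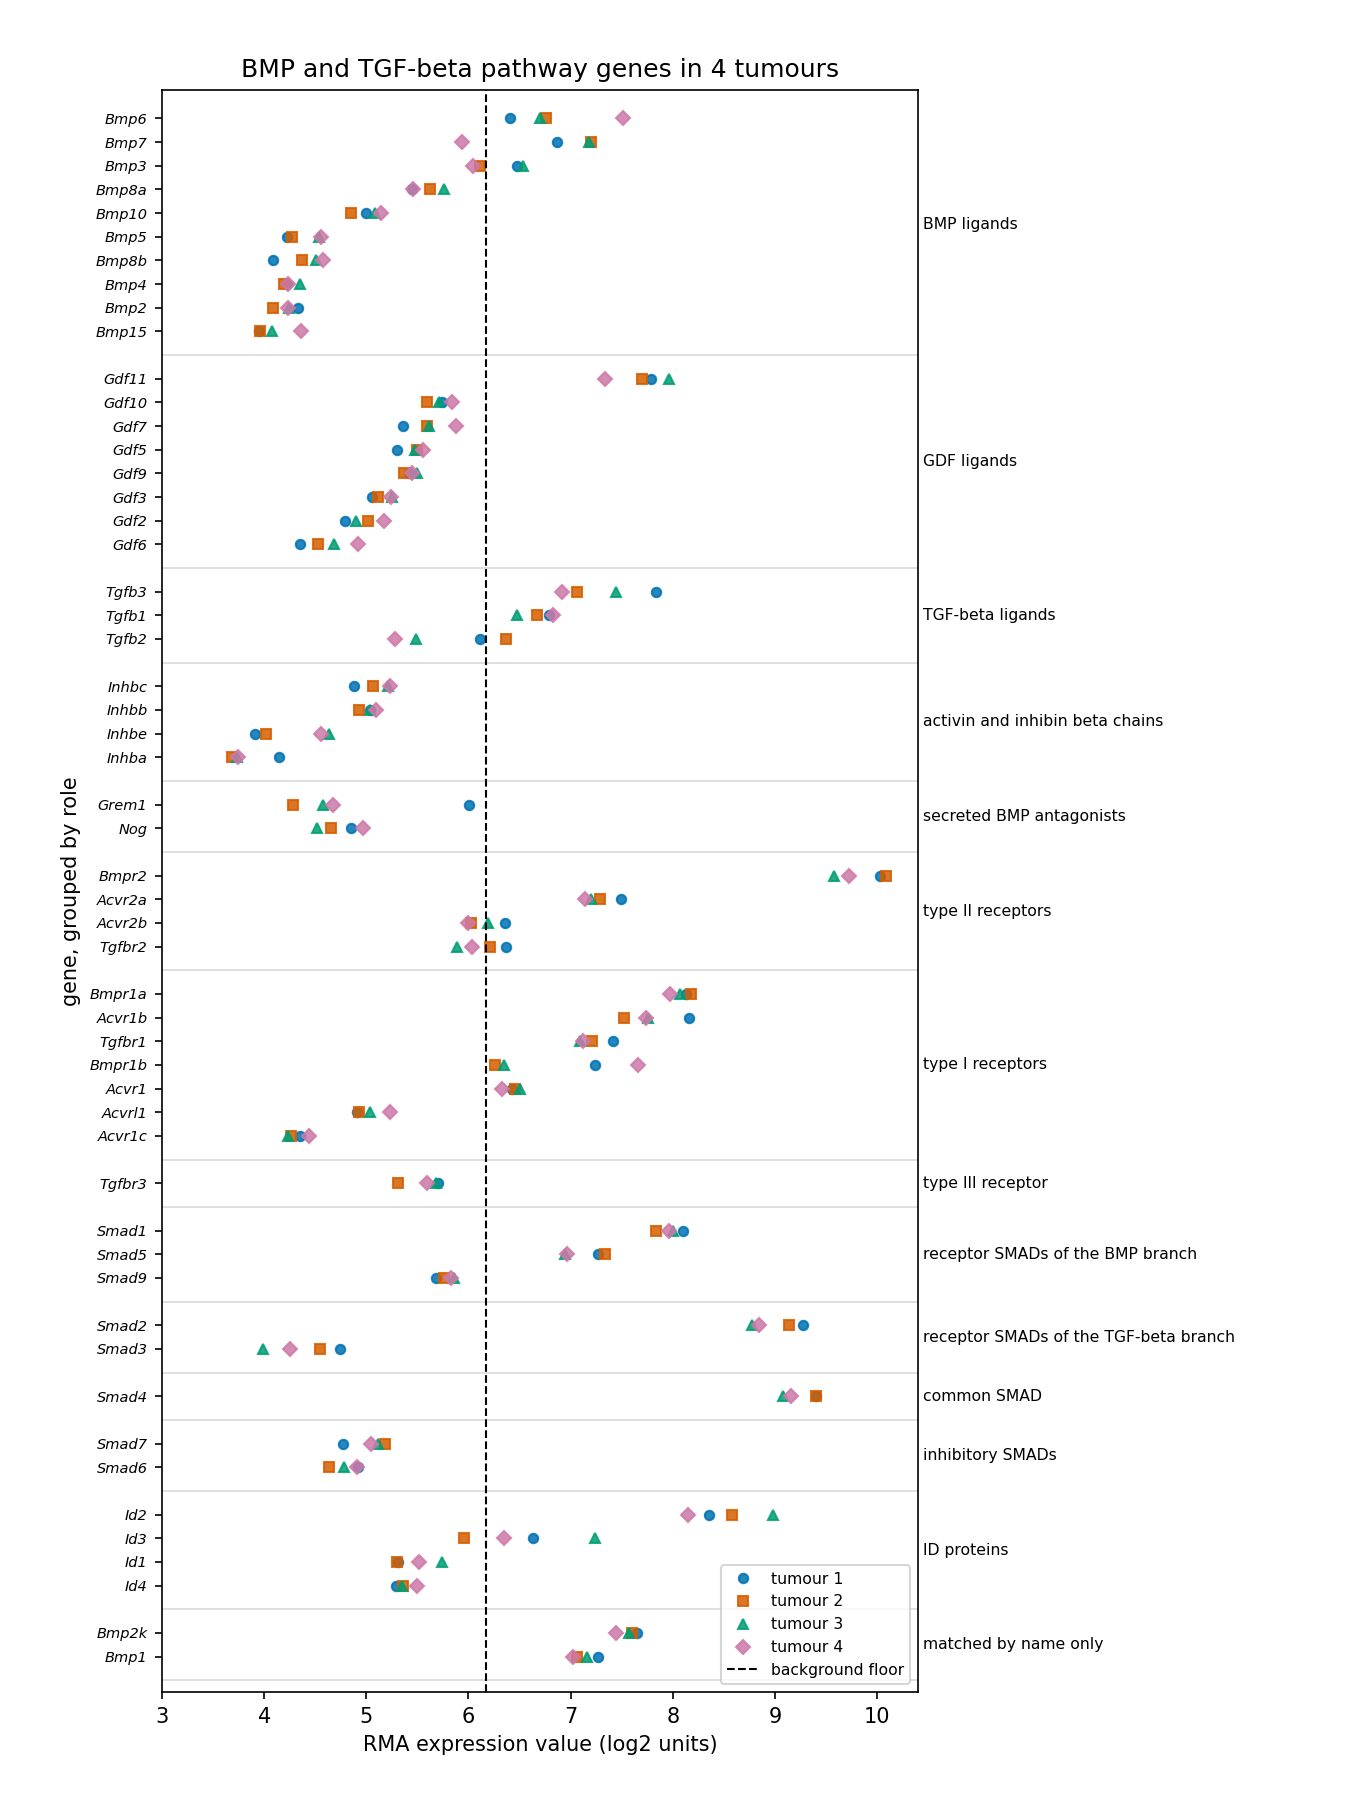
RMA expression value (log2 units, horizontal axis) of the 53 pathway genes, grouped by role, with 1 point per tumour and the background floor of 6.17 as a dashed line. Receptors and receptor SMADs lie mostly right of the floor, and most ligands left of it.

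Among the BMP ligands, 3 of 10 lay above the floor, Bmp6, Bmp7 and Bmp3. Bmp6, which in the liver induces the iron hormone hepcidin, measured 6.40, 6.75, 6.70 and 7.51 in tumours 1 to 4 (6.84 ± 0.47, SD, n = 4). Tumour 4 was the highest and the other three lay within 0.35 log2 units. Bmp7, a ligand of the same subfamily that is needed for kidney and eye development, measured 6.87, 7.20, 7.18 and 5.94 (6.79 ± 0.59, SD, n = 4). Here tumour 4 was the lowest, so these 2 ligands had opposite extremes in the same tumour. Bmp3, which opposes bone-forming BMPs, measured 6.48, 6.11, 6.54 and 6.04 (6.29 ± 0.25, SD, n = 4). It straddled the floor, with tumours 1 and 3 above and tumours 2 and 4 below.

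The other 7 BMP ligands had means from 4.08 to 5.57. Bmp4, which in chick embryos is made by the dorsal aorta and induces sympathetic neurons, measured 4.22, 4.19, 4.35 and 4.23 (4.25 ± 0.07, SD, n = 4). Its close relative Bmp2 measured 4.33, 4.08, 4.24 and 4.23 (4.22 ± 0.10, SD, n = 4). Both sat near the median of the olfactory and vomeronasal receptor genes, 4.01, with little spread. The remaining 5, Bmp5, Bmp8a, Bmp8b, Bmp10 (a ligand of the heart) and Bmp15 (a ligand of the oocyte), varied by 0.29 to 0.50 log2 units.

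Of the growth and differentiation factors, 1 of 8 passed. Gdf11, a ligand that signals through SMAD2 and SMAD3 and patterns the body axis, measured 7.79, 7.70, 7.96 and 7.33 in tumours 1 to 4 (7.70 ± 0.26, SD, n = 4). It was lowest in tumour 4 and all 4 values were above the floor. The other 7 had means from 4.62 to 5.72, among them Gdf2, a liver product that acts on endothelium (4.97 ± 0.16), and Gdf9, an oocyte factor (5.43 ± 0.06, SD, n = 4). The array shared the Gdf1 probe set with another gene, so Gdf1 was not used here.

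In the TGF-beta ligands, 2 of 3 lay above the floor and each had its own order of tumours. Tgfb3, a ligand required for palate closure, measured 7.84, 7.06, 7.45 and 6.92 in tumours 1 to 4 (7.32 ± 0.41, SD, n = 4), highest in tumour 1. Tgfb1, the isoform that restrains immune cells, measured 6.79, 6.67, 6.47 and 6.82 (6.69 ± 0.16, SD, n = 4) and differed little between tumours. Tgfb2 measured 6.11, 6.37, 5.48 and 5.28 (5.81 ± 0.51, SD, n = 4). It was higher in tumours 1 and 2 than in tumours 3 and 4, with only tumour 2 above the floor. Of 7 pericyte and smooth muscle markers, Rgs5, Acta2 and Pdgfrb lay above the floor, with relative shifts of 0.09, 0.27, -0.02 and -0.34 in tumours 1 to 4. The other 4 were under it and did not share 1 order. Cspg4 and Tagln were highest in tumour 2, but Des and Myh11 in tumour 4, at 5.15 and 5.22. A relative shift is the median deviation, from their own means, of the list's genes above the floor, less that of all genes above the floor. The summed linear signal of a list is over all its measured genes. For the pericyte and smooth muscle markers it was 1012, 1162, 818 and 699 in tumours 1 to 4. Their part in the Tgfb2 values was not tested.

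The activin and inhibin beta chains, which pair into activins or with the alpha chain into inhibins, had means from 3.83 to 5.10. Inhba measured 4.15, 3.68, 3.73 and 3.75 in tumours 1 to 4 (3.83 ± 0.22, SD, n = 4), with tumour 1 apart from the other three, all far under the floor. The secreted antagonists bind BMPs and keep them from their receptors. Grem1 measured 6.00, 4.28, 4.58 and 4.67 in tumours 1 to 4 (4.88 ± 0.77, SD, n = 4), the widest range of the 53 genes, 1.73 log2 units. Tumour 1 stood above the others, though even there the value was under the floor. Nog, noggin, measured 4.85, 4.65, 4.52 and 4.97 (4.75 ± 0.20, SD, n = 4).

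The relative shift of the fibroblast markers was highest in tumour 1, where Grem1 and Tgfb3 were highest. Of the 8 markers, 6 lay above the floor, with relative shifts of 0.51, -0.30, 0.18 and -0.36 in tumours 1 to 4 and 6 of 6 above their own mean in tumour 1. Their summed linear signal was 2124, 1257, 1393 and 988. Tgfb3 had the same order of tumours by level, 1, 3, 2 and 4, as this sum, while for Grem1 tumour 2 was the lowest. Fbln1 was highest in tumour 2, with 8.89 there and 8.76 in tumour 1. Pdgfra (4.37 ± 0.15) and Lum (3.88 ± 0.16, SD, n = 4), both fibroblast markers, were under the floor, and Pdgfra was lowest in tumour 1, with 4.20. The part of fibroblasts in the Grem1 and Tgfb3 values was not tested.

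Of the receptors, 2 of 4 type II and 5 of 7 type I lay above the floor. Bmpr2, the type II receptor of BMPs, measured 10.03, 10.09, 9.58 and 9.72 in tumours 1 to 4 (9.86 ± 0.24, SD, n = 4). Acvr2a, which binds activins and several BMPs, measured 7.49, 7.28, 7.20 and 7.14 (7.28 ± 0.16, SD, n = 4). Neither varied by more than 0.51 log2 units. Its relative Acvr2b (6.35, 6.02, 6.19 and 5.99) and Tgfbr2, the type II receptor of TGF-beta (6.37, 6.21, 5.89 and 6.04), had means just under the floor and tumours on both sides of it. Tgfbr3, betaglycan, which presents TGF-beta to its receptors, averaged 5.57 ± 0.18 (SD, n = 4).

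The type I receptors of both branches were represented. Of the BMP receptors, Bmpr1a measured 8.13, 8.18, 8.07 and 7.97 in tumours 1 to 4 (8.09 ± 0.09, SD, n = 4) and Acvr1 6.42, 6.45, 6.51 and 6.33 (6.43 ± 0.07, SD, n = 4). Both were nearly constant. Acvr1b, the activin receptor, measured 8.16, 7.52, 7.76 and 7.74 (7.79 ± 0.27, SD, n = 4), highest in tumour 1, and Tgfbr1, the type I receptor of TGF-beta, 7.41, 7.21, 7.09 and 7.12 (7.21 ± 0.14, SD, n = 4). Under the floor were Acvrl1, the endothelial receptor of Gdf2 and Bmp10 (5.03 ± 0.15), and Acvr1c, a receptor of activins and nodal (4.32 ± 0.09, SD, n = 4).

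Bmpr1b differed from the other receptors in its spread. This type I BMP receptor, required for cartilage of the digits, measured 7.24, 6.26, 6.35 and 7.66 in tumours 1 to 4 (6.88 ± 0.68, SD, n = 4). Tumours 1 and 4 were high and tumours 2 and 3 close to the floor. Its range of 1.40 log2 units was the widest among members above the floor, beside 0.64 for Acvr1b, the next receptor.

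Variation of 2-fold or more was seen in 4 of the 21 members above the floor (19.0%): Bmpr1b, Id3, Bmp7 and Bmp6, with ranges of 1.40, 1.27, 1.26 and 1.11 log2 units. Of all genes above the floor, 4.26% reached that range. The median range was 0.50 for the members and 0.41 for all genes above the floor. This share rests on 4 genes and was not tested against the background. Without tumour 4, 1 of the 4 remained, Id3, as the ranges of Bmp6, Bmp7 and Bmpr1b were then 0.35, 0.33 and 0.98. Without tumour 2 or without tumour 3, Id3 dropped out with 0.89 or 0.68, and without tumour 1, Bmp6 did with 0.81. When the 99th percentile of the receptor genes was the floor, 12 members passed and 0 of them varied by 2-fold, as all 4 named here were then under it. Of the 32 members under the floor of 6.17, Grem1 and Tgfb2 also reached a range of 1, where 1.70% of all genes under the floor did. Grem1 had a range of 0.39 without tumour 1, and Tgfb2 one of 0.83 without tumour 2 and of 0.88 without tumour 4.

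**Figure D2:**
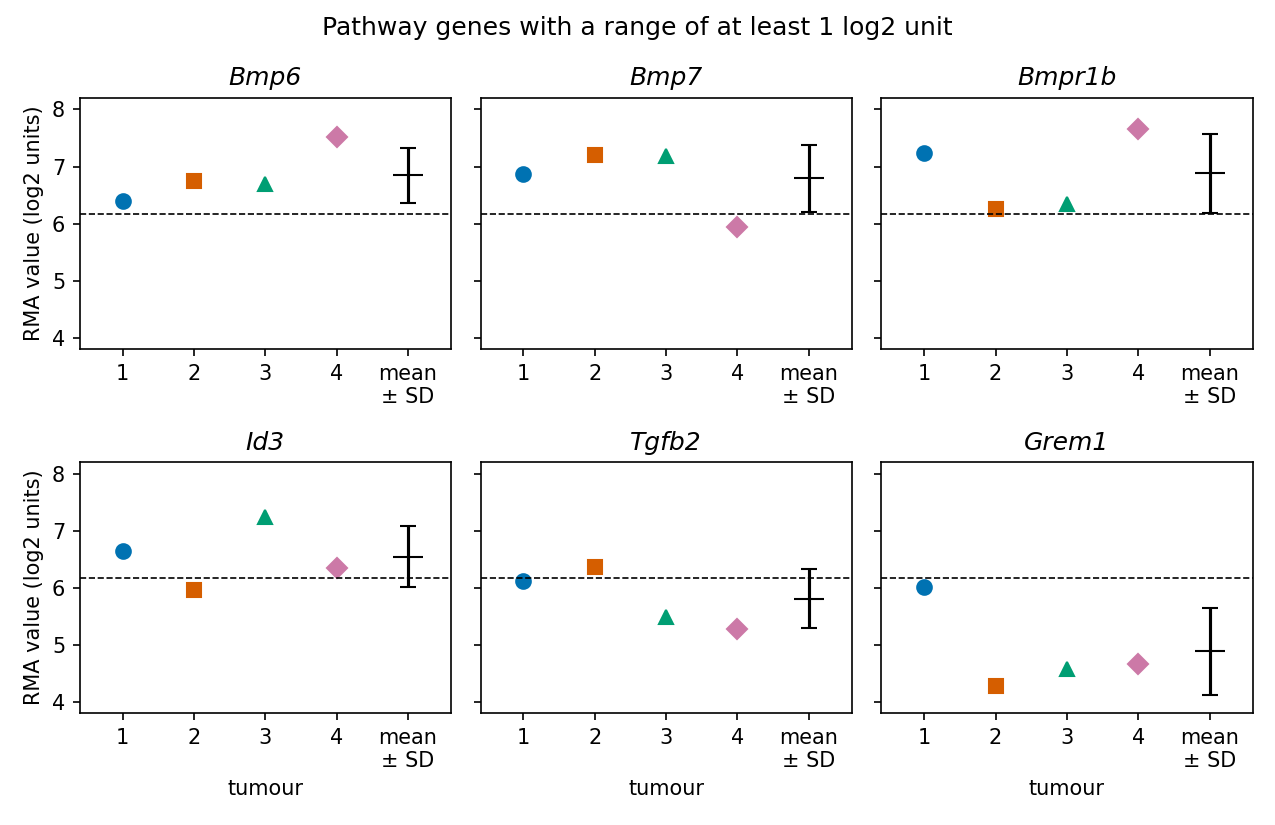
RMA value (log2 units, vertical axis) in each tumour (horizontal axis) of the 6 pathway genes with a range of at least 1 log2 unit, with the mean and SD over the 4 tumours at the right and the floor of 6.17 as a dashed line. Tumour 4 is highest for Bmp6 and Bmpr1b and lowest for Bmp7 and Tgfb2, tumour 3 is highest for Id3, and tumour 1 for Grem1.

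Bmp6 and Bmpr1b shared tumour 4 as their highest, with values 0.75 and 0.87 above their own means relative to all genes above the floor. Sympathetic markers were higher there as well: 7 of 7 were above their own mean, with a relative shift of 0.26 in tumour 4 and of -0.07, -0.23 and -0.01 in tumours 1 to 3. Their summed linear signal was 7973, 7022, 8108 and 9459 in tumours 1 to 4. Their part in the Bmp6 and Bmpr1b values was not tested. Of the 3 members above the floor that were highest in tumour 4, the other was Tgfb1, at 6.82 with a range of 0.35. Promoter windows are shown for Bmp6 and Bmpr1b only, whose ranges reached 1 log2 unit. Each window runs from 250 bases before to 50 after the start site on the gene's strand, from RefSeq on GRCm38.p6. Bmp6 lies at chr13:38345466-38345765 on the plus strand. Bmpr1b has 3 start sites in the table, and the one farthest upstream is shown, chr3:141982215-141982514 on the minus strand. Capitals mark the SMAD-binding letters CAGAC or their reverse complement GTCTG and the GC-rich SMAD letters GGCGCC, searched on both strands with no overlapping matches in these windows.
Bmp6: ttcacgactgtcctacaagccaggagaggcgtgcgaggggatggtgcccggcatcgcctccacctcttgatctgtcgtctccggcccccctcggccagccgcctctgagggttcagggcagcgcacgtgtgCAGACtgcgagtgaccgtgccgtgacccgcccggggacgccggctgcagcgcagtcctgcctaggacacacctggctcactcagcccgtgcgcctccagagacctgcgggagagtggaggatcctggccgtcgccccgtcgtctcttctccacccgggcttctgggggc
Bmpr1b: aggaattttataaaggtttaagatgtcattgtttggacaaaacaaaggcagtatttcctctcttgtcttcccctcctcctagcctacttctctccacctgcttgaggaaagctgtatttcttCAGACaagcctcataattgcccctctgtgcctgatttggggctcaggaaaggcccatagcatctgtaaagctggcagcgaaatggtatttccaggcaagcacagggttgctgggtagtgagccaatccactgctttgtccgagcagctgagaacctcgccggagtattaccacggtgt
Each of these windows held CAGAC or GTCTG in 1 place and neither held GGCGCC. The short element is common, with 49.6% of all 32851 promoter windows holding it, against 11.9% for GGCGCC. A match describes letters and is not evidence of binding.

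The receptor SMADs carry the signal from the receptors. In the BMP branch, Smad1 measured 8.10, 7.83, 8.00 and 7.96 in tumours 1 to 4 (7.97 ± 0.11, SD, n = 4). Its partner Smad5 measured 7.27, 7.34, 6.95 and 6.97 (7.13 ± 0.20, SD, n = 4). Both were above the floor in every tumour, whereas Smad9, the third of that branch, averaged 5.78 ± 0.08 (SD, n = 4). In the TGF-beta branch Smad2 measured 9.28, 9.14, 8.78 and 8.84 (9.01 ± 0.24, SD, n = 4). Smad3, which shares its receptors with Smad2, measured 4.74, 4.54, 3.99 and 4.25 (4.38 ± 0.33, SD, n = 4) and was under the floor in every tumour. Smad4, the partner of both branches, measured 9.40, 9.40, 9.08 and 9.16 (9.26 ± 0.17, SD, n = 4). Smad2, Smad4 and Smad5 were higher in tumours 1 and 2 than in tumours 3 and 4. All genes above the floor leaned the same way, their median deviations being 0.12, 0.04, -0.09 and -0.08 in tumours 1 to 4. Relative to these, the SMADs above the floor hardly deviated from their means: the furthest was Smad1 in tumour 2, at -0.18 log2 units.

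The inhibitory SMADs, which block receptor SMADs and are induced by the pathway as feedback, lay under the floor. Smad7 measured 4.77, 5.18, 5.12 and 5.04 in tumours 1 to 4 (5.03 ± 0.18, SD, n = 4) and Smad6 4.91, 4.64, 4.78 and 4.91 (4.81 ± 0.13, SD, n = 4). Neither varied by 2-fold.

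ID proteins are helix-loop-helix factors without a DNA-binding region. They hold back the E proteins and lineage bHLH factors they pair with, and their genes are BMP targets in many cells. Id2 measured 8.35, 8.58, 8.98 and 8.15 in tumours 1 to 4 (8.51 ± 0.35, SD, n = 4). Id3 measured 6.64, 5.96, 7.23 and 6.35 (6.54 ± 0.54, SD, n = 4). Both were highest in tumour 3, by 0.55 and 0.78 above their own means relative to all genes above the floor, but Id2 was lowest in tumour 4 and Id3 in tumour 2. Id1, under the floor, was also highest in tumour 3, with 5.31, 5.30, 5.74 and 5.51 (5.47 ± 0.21, SD, n = 4). Id4 measured 5.29, 5.36, 5.35 and 5.49 (5.37 ± 0.09, SD, n = 4) and did not share this order.

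Id2 and Id3 were among the 5 members above the floor that were highest in tumour 3, with Bmp3, Gdf11 and Acvr1. Promoter windows of the 2 ID genes only are shown. They are drawn and marked as for Bmp6, with Id2 at chr12:25096043-25096342 on the minus strand and Id3 at chr4:136143572-136143871 on the plus strand.
Id2: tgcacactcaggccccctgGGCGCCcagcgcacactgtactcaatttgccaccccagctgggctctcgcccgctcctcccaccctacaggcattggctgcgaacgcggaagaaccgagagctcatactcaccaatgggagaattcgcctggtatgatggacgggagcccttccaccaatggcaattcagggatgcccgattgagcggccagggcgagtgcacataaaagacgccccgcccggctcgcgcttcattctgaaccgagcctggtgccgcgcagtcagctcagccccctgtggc
Id3: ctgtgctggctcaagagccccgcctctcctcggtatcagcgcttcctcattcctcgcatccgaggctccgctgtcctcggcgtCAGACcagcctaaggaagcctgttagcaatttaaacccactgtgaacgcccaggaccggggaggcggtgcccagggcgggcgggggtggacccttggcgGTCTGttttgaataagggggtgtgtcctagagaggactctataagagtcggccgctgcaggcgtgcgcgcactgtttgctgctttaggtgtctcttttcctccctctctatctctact
The Id2 window held GGCGCC in 1 place and no CAGAC or GTCTG, while the Id3 window held CAGAC and GTCTG in 2 places and no GGCGCC, so the searched letters differed between them. The 37 members with a window had 43 in all, as some have more than 1. Of these 43, 12 held GGCGCC (27.9%), beside 11.9% of all 32851 windows. CAGAC or GTCTG was held by 17 (39.5%), beside 49.6% of all windows. These differences were not tested.

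Other transcripts also differed in tumour 3. Endothelial markers, a cell type in which Id1 and Id3 are known to be active, had 2 of 8 genes above the floor, Cdh5 and Egfl7. The relative shift of these 2 was -0.15, -0.09, 0.23 and 0.01 in tumours 1 to 4. Of those under the floor, Pecam1 and Emcn were also highest in tumour 3. Kdr, Tek and Cldn5 were highest in tumour 2 and Tie1 in tumour 4. The summed linear signal of all 8, most of them under the floor, was 378, 376, 404 and 361 in tumours 1 to 4. Macrophage markers had 6 of 8 genes above the floor, with Adgre1 and Mrc1 under it. They were lowest in tumour 3, with a relative shift of -0.48 there and of 0.07, 0.12 and 0.19 in tumours 1, 2 and 4. Their summed linear signal was 2726, 3102, 1724 and 2780 in tumours 1 to 4. Fos, Egr1, Junb and Ier2, all under the floor, were highest in tumour 3, at 5.95, 6.03, 5.64 and 4.56. Jun, above it, stood at 8.15 in tumour 3 and 8.16 in tumour 1. Of 4 measured Schwann cell markers only Fabp7 lay above the floor, at 9.54, 8.49, 6.49 and 8.32 in tumours 1 to 4. Erbb3 was also lowest in tumour 3, but Sox10 and S100b were highest there. The part of these genes and cell types in the Id values was not tested.

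Both genes matched by name alone lay above the floor and were nearly constant. Bmp1, a metalloprotease that trims procollagen and cleaves the antagonist chordin, measured 7.27, 7.06, 7.16 and 7.02 in tumours 1 to 4 (7.13 ± 0.11, SD, n = 4). Bmp2k, an intracellular kinase of endocytosis, measured 7.65, 7.60, 7.57 and 7.44 (7.57 ± 0.09, SD, n = 4).

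The members did not share 1 order of tumours. Of the 21 above the floor, 8, 5, 5 and 3 were highest in tumours 1 to 4, and 1, 4, 6 and 10 were lowest there. Of all genes above the floor, 46.6%, 26.9%, 11.0% and 15.5% were highest and 7.51%, 17.8%, 36.0% and 38.6% lowest in tumours 1 to 4. Members and all genes were thus most often highest in tumour 1 and lowest in tumour 4. In tumour 3, 23.8% of the members were highest, beside the 11.0% of all genes. How far the arrays as a whole set the order of the members was not tested. After each array was centred on all genes above the floor, 5, 3, 10 and 3 members were highest in tumours 1 to 4, beside 18.2%, 29.2%, 24.3% and 28.3% of all genes, and 4, 7, 5 and 5 were lowest, beside 21.7%, 25.2%, 24.1% and 29.0%. Centring thus moved the tumour with most members at their highest to tumour 3. The 10 members highest in tumour 3 after centring were Id2, Id3, Bmp7, Bmp3, Gdf11, Acvr1, Bmp1, Smad1, Bmp2k and Bmpr1a. The last 5 of these lay only 0.07 to 0.16 above their own means there. Bmp1 and Bmp2k are matched by name alone. The median relative deviation of the 21 was 0.01, -0.04, 0.07 and -0.04 in tumours 1 to 4, small beside the spread between members.

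**Figure D3:**
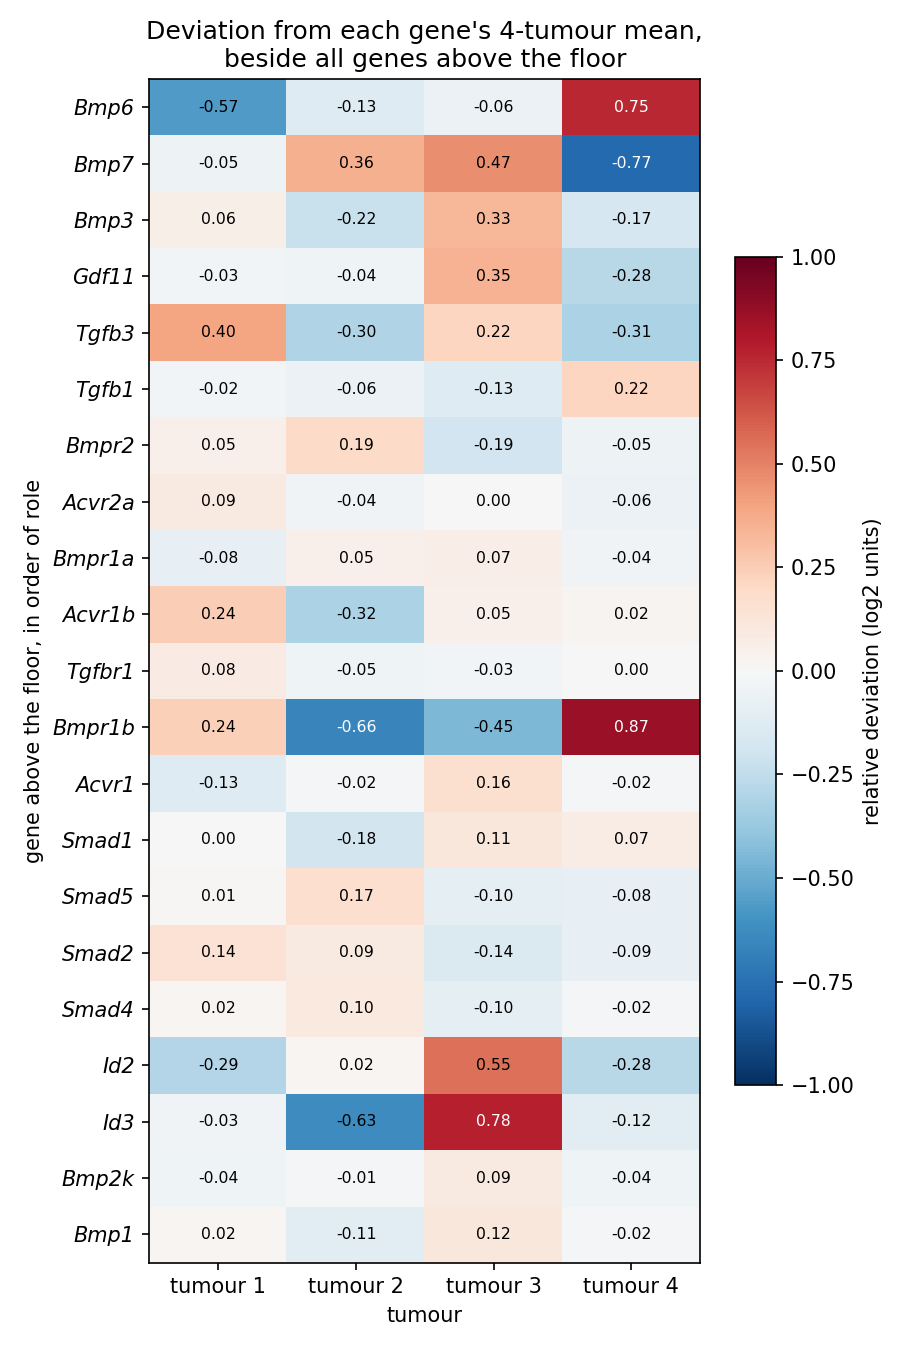
Deviation of each of the 21 pathway genes above the floor from its own 4-tumour mean, less the median deviation of all genes above the floor (log2 units, colour and printed number), by tumour. Bmpr1b and Bmp6 stand out as high and Bmp7 as low in tumour 4, Id2 and Id3 as high in tumour 3, and receptors and SMADs other than Bmpr1b are pale.

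Pathway genes outside the symbol rule were taken from 7 lists by role. Of 72 genes, 66 were measured here and 33 lay above the floor (50.0%), beside 40.5% of all genes. Of the 17 extracellular antagonists, 5 passed: Twsg1, which binds BMPs and chordin, Fstl1, Crim1, Nbl1 and Fstl3. Fstl1 had the widest range of these, with 7.49, 7.12, 7.35 and 6.74 in tumours 1 to 4 (7.17 ± 0.33), followed by Nbl1 with 6.64, 6.42, 6.94 and 6.92 (6.73 ± 0.25, SD, n = 4). Chrdl1, a chordin relative under the floor, was higher in tumours 1 and 2 (5.71 and 5.80) than in tumours 3 and 4 (4.77 and 4.93). Nodal, Mstn, Amh and Amhr2 were all under the floor.

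Co-receptors that passed, 2 of 8, were Rgmb, a BMP co-receptor of neurons, and Bambi, a decoy receptor without a kinase. Rgmb measured 9.42, 8.91, 8.84 and 8.98 in tumours 1 to 4 (9.04 ± 0.26, SD, n = 4) and Bambi 6.36, 6.52, 6.61 and 6.69 (6.54 ± 0.14, SD, n = 4). Eng, the endothelial co-receptor, lay just under the floor at 6.07 ± 0.28 (SD, n = 4) and was lowest in tumour 3, at 5.78. Of the genes that store and release latent TGF-beta, 4 of 9 passed: Furin, which cleaves the precursors, Ltbp4, Itgav and Itgb8. Itgav and Itgb8 encode the 2 chains of an integrin that activates latent TGF-beta. Itgav measured 7.06, 6.67, 6.17 and 6.56 (6.61 ± 0.37) and Ltbp4 6.93, 6.65, 6.94 and 6.50 (6.75 ± 0.22, SD, n = 4).

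Regulators of SMADs passed in 11 of 14 cases, namely Ppm1a, Usp15, Trim33, Fkbp1a, Smurf2, Zfyve9, Ski, Lemd3, Smurf1, Nedd4l and Tgif1. Nedd4l, a ubiquitin ligase that turns over SMADs, had the widest range, with 7.74, 7.15, 6.75 and 6.59 in tumours 1 to 4 (7.06 ± 0.51, SD, n = 4), highest in tumour 1. Tgif1, a corepressor, measured 6.44, 6.77, 6.39 and 6.15 (6.43 ± 0.26, SD, n = 4). Skil, a corepressor induced by TGF-beta, was under the floor and lowest in tumour 2, at 4.61 against 5.33 to 5.63 in the others.

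Response genes passed in 6 of 8 cases: Hey1, Pmepa1, Tgfbi, Klf10, Ccn2 and Cdkn2b. Tgfbi, a matrix protein, measured 7.03, 7.03, 7.07 and 6.35 in tumours 1 to 4 (6.87 ± 0.35, SD, n = 4), with tumour 4 low. Klf10, an early TGF-beta target, measured 6.56, 6.36, 6.19 and 5.97 (6.27 ± 0.25, SD, n = 4). None of the 6 varied by 2-fold. Among bHLH partners of ID proteins 5 of 6 passed, Tcf4, Hand2, Tcf12, Hand1 and Tcf3. Hand1, a sympathetic lineage factor, measured 8.39, 8.58, 7.55 and 8.61 (8.28 ± 0.50, SD, n = 4). It was lowest in tumour 3, where Id2 and Id3 were highest, while Hand2, from the same family, measured 9.22, 8.91, 9.01 and 9.29 (9.11 ± 0.18, SD, n = 4) and was lowest in tumour 2. Tcf12, an E protein, measured 8.66, 8.64, 8.59 and 8.28 (8.54 ± 0.18, SD, n = 4).

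**Figure D4:**
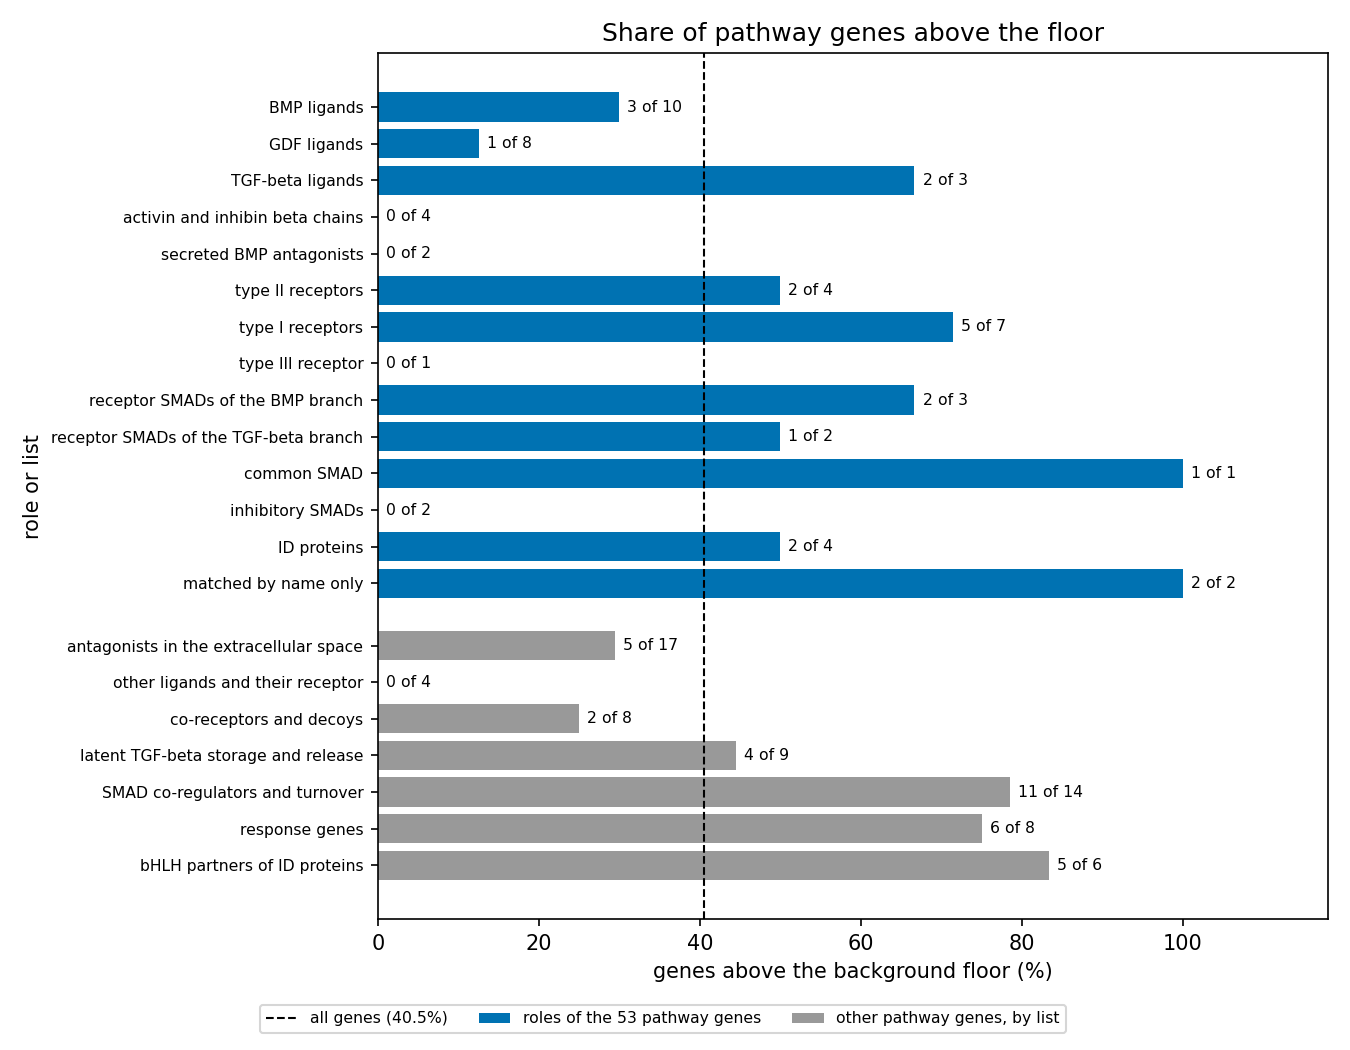
Share of genes above the background floor (%, horizontal axis) for each role among the 53 pathway genes (blue) and for each list of other pathway genes (grey), with counts at the bars and the share of all genes, 40.5%, as a dashed line. SMAD regulators, response genes and bHLH partners lie right of the line, and the activin chains, both kinds of antagonist and the co-receptors left of it.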

How the data were processed

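Total RNA from 4 tumours was measured on 1-colour Affymetrix arrays. The authors deposited 1 log2 value per probe set and tumour, 41345 in all, made with RMA and Partek per the submitters' processing notes. Versions, settings and the log base are not stated there, and log2 is read from the range of 2.47 to 13.6. The values were used as deposited. Array medians were 5.15 to 5.29, and at most 0.22% of the values were identical between any 2 arrays. The number of arrays limits the precision. Of the probe sets, 23521 carried 1 gene in the platform annotation, 1814 carried several and 16010 were not listed. Symbols were updated through Entrez identifiers with RefSeq of GRCm38.p6 (23328 matched), and the probe set with the highest mean was taken, giving 22180 genes, of which 8986 lay above the floor. No detection calls were used, so the floor stands in for them. A gene was called variable at a range of at least 1 log2 unit. Dixon's ratio of the extreme gap to the range was set against its 95% critical value for 4 samples.

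With 1 group there is no contrast and no p-value. Named were every member above the floor, the 5 nearest under it, those with a range of at least 1, and in the other lists every gene above the floor, with values for the 2 widest. Values of other members and of markers, and Eng, Chrdl1, Skil, Xist, Fos, Egr1, Junb, Ier2 and Jun, were added after seeing them. The members and lists were chosen with earlier results of these data known. Replicate numbers follow the order of the records. The steps were tested on simulated data. Python 3.11.15, pandas 2.3.3 and NumPy 2.4.6 were used. Alternatives changed the floor, normalization, probe set rule, range threshold and tumours.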

Additional observations from a re-analysis of the deposited data

Results flagged for a closer look

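In 4 genes 1 tumour lay far from the other three, with a gap to the nearest of them, as a share of the whole range, past Dixon's 95% critical value. Of 86 genes given this ratio (the 53 members and the 33 other pathway genes above the floor) that is 4.65%, and chance flags about 1 in 20. Of all genes above the floor 3.83% passed. Inhba, an activin chain under the floor, was high in tumour 1 with a ratio of 0.860. Twsg1, a BMP-binding protein, was high in tumour 1 with a ratio of 0.891, at 8.83 against 8.57 to 8.60 in the others. Pmepa1, a TGF-beta response gene whose product opposes SMAD signalling, was high in tumour 1 with a ratio of 0.836, at 7.22 against 6.76 to 6.83. All genes above the floor deviated by a median of 0.12 log2 units in tumour 1. Relative to that, Twsg1, Pmepa1 and Inhba were 0.06, 0.20 and 0.20 above their own means there. Tgfbi was low in tumour 4 with a ratio of 0.938. None of the 21 members above the floor passed this limit.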

How the results depend on the processing

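The floor decided most counts. With it at the 99th percentile of receptor genes, 12 members and 17 other pathway genes passed, 0 members and 1 other gene were variable, and members highest in tumours 2, 3 and 4 numbered 3, 2 and 0, with 0, 2 and 6 lowest in tumours 1, 2 and 4. At the receptor median, 52 members and 64 other genes passed, 4 of the other genes variable. Members highest in tumours 1, 3 and 4 then numbered 15, 12 and 18, and 16, 14 and 10 were lowest in tumours 1 to 3. With no floor these were 16, 12 and 18, and 16, 15 and 10, with 4 other genes variable. Variable members numbered 6 under both. At a range of 1.5-fold, 8 members and 8 other genes were variable. After a further quantile normalization 2 members were lowest in tumour 1, and 1 member above the floor passed Dixon's limit, against 0 as deposited. Centring, chosen after seeing the data, gave 5, 3 and 10 members highest in tumours 1 to 3 and 4, 7 and 5 lowest in tumours 1, 2 and 4, and kept the same 4 variable members. The mean of probe sets moved Gdf5, which has 2 probe sets, to 4.56.

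Without each tumour in turn, members above the floor numbered 20 to 23 (Bmp3 lost without tumour 1, Tgfbr2 gained without tumour 3 and with Acvr2b without tumour 4). Variable members numbered 1 to 3 and variable other genes 1 to 2. Other genes above the floor numbered 29 to 35. Members highest in tumours 2 and 3 numbered 6 to 9 and 5 to 8, and those lowest in tumours 1 to 4 numbered 1 to 4, 4 to 9, 7 to 10 and 9 to 16. Members highest in tumour 1 numbered 12 and in tumour 4 numbered 3 in each of these. No paired analysis was possible because there is 1 group. The cause of these changes was not tested. A stricter floor can only lower the count of genes above it, whereas leaving out a tumour lowered or raised that count.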

Other observations

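In the RefSeq gene order of GRCm38.p6, 6 pairs of members lie next to each other or with at most 2 protein-coding genes between them. In 3 pairs only one gene lay above the floor. Acvr1b (7.79 ± 0.27) passed while Acvrl1 (5.03 ± 0.15, SD, n = 4) next to it on chromosome 15 did not. Acvr1 (6.43 ± 0.07) passed and its neighbour Acvr1c (4.32 ± 0.09, SD, n = 4) on chromosome 2 did not. Smad2 passed and Smad7, with 2 genes between them on chromosome 18, did not. In the other 3 pairs, Inhbe with Inhbc, Gdf10 with Gdf2 and Smad3 with Smad6, neither did. The 53 members lie on 17 chromosomes.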
